A study of Mus musculus with 4 samples.

Results

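Small nucleolar RNA host genes are genes whose introns carry small nucleolar RNAs (snoRNAs), and 7 of them were listed for mouse: Snhg1, Snhg3, Snhg5, Snhg6, Snhg8, Snhg12 and Gas5. The gene table of the series has 27998 genes, and 2 of the 7 symbols, Snhg6 and Snhg12, are among them. Snhg1, Snhg3, Snhg5, Snhg8 and Gas5 are not analysed here. Snhg6 was chosen by its measured level, since it was higher on a ketogenic diet in several cell types of these libraries, so its difference between diets is given below as a description, with no test. Snhg12 was listed as a host gene of the same family.

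A snoRNA is cut from the intron of its host after splicing and then guides the chemical modification or the processing of other RNAs, mostly ribosomal RNA. The spliced exons of many noncoding host genes have no conserved reading frame, and in human and mouse cells such RNAs are often translated briefly and removed by nonsense-mediated decay. Many hosts, coding and noncoding, begin with a run of pyrimidines of the kind found at the start of ribosomal protein mRNAs (a 5′ terminal oligopyrimidine, or TOP, start), which ties the use of such RNAs to growth signals. The method used here reads polyadenylated RNA near its 3′ end, so the values below concern spliced host RNA and not the snoRNAs.

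Single-cell libraries of dissociated small intestine were made with the 10x 3′ v2 method from mice kept on a ketogenic diet (2 libraries) or on a control diet (2 libraries). A ketogenic diet is rich in fat and very poor in carbohydrate. The deposited cell table lists all cells as male. The labels give no strain, age, genotype or time on the diet, and whether a library holds cells of 1 animal or of more is not stated. The p-values between diets thus measure only the spread between libraries, part of which may be technical. Those between cell types or parts of the enterocytes measure how steady a difference within a library is over the same libraries.

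The snoRNAs of the measured hosts are shown first because they are the products that the host introns carry. Snhg6 (ENSMUSG00000098234.7, a lincRNA in GENCODE M21) spans chromosome 1, 9941959 to 9944118, minus strand, mm10, and 1 annotated snoRNA, Snord87 (9942463 to 9942549), lies within it. Exons of 0 of the 5 annotated Snhg6 transcripts overlap Snord87. Snhg12 (ENSMUSG00000086290.9, a lincRNA) spans chromosome 4, 132308623 to 132311024, plus strand, and holds 4 annotated snoRNAs, Snora16a, Snora44, Snora61 and Snord99 (132310691 to 132310764). Exons of 3 of its 10 transcripts overlap Snord99. Snord87 and Snord99 are of the C/D box class, whose members guide ribose methylation, and the capitals mark the letters TGATGA (a C box) and CTGA (a D box) that were found in them on the sense strand, 5′ to 3′, from the GRCm38 genome.
Snord87: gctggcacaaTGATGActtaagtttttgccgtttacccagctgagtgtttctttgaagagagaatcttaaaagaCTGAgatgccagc
Snord99: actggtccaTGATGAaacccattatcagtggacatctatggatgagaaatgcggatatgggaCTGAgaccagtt

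The start of Snhg12 is shown because a TOP start is a C at the first base followed by a run of C and T letters. The window chr4:132308648-132308707, plus strand, GRCm38.p6, comes from the RefSeq promoter sequences, and the capitals mark its longest unbroken run of C and T among those that touch the stretch from 20 bases before to 20 bases after the RefSeq start at 132308678, which lies downstream of the outermost GENCODE start given above.
Snhg12 start: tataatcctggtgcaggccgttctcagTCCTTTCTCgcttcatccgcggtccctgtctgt
The run is 9 bases long, it begins 3 bases before the RefSeq start, and the base at that start is T and not C. Of 32851 promoters in the same table, 14.7% had a run at least as long in the same stretch, and the median run was 5 bases. A match of letters is a description and does not show where transcription begins. Snhg6 has no entry among these promoter sequences.

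The table held 15053 cells. The libraries had 3194 to 3414 cells on the ketogenic diet and 3549 to 4896 on the control diet, with 27316428 to 34106639 unique molecular identifiers (UMIs, each a counted RNA molecule) per library. Per cell, the median was 8734.5 and 9040.0 UMIs on the ketogenic diet, against 8077 and 6974.5 UMIs on the control diet. Mitochondrial RNA made up 50% or more of the UMIs in 8.14% and 4.63% of ketogenic cells, against 3.47% and 2.70% of control cells. The authors' 7 cell types were used as deposited, and each type's own list of 5 or 6 markers had a higher summed level in that type than in every other type of the same library, in each of the 4 libraries. The enterocyte markers (5 genes) were close between types, at 3515 and 2260 CPM (UMIs per total UMIs, scaled to a common total) in enterocytes against 2181 and 1894 CPM in goblet cells of the ketogenic libraries, and 1742 and 1896 CPM in enterocytes against 1567 and 1617 CPM in goblet cells of the control libraries. Cells deposited as Paneth also carried 44361 and 31094 CPM of goblet markers in the ketogenic libraries and 40897 and 57268 CPM in the control libraries, in control library 2 more than the 45787 CPM of their own markers, so the Paneth values below rest on cells with both sets of markers. Any pair of libraries shared 10 to 26 cell barcodes. Snhg6 gave 5870 UMIs over all cells and at most 6 in 1 cell, and Snhg12 gave 3576 and at most 10.

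Snhg6, the host of Snord87, was higher in the ketogenic libraries over the whole epithelium and in 5 of the 7 cell types without overlap between the diets. Levels are in CPM, the UMIs summed over the cells of a library and scaled to a common total with TMM normalization. Over all cells Snhg6 had 59.6 and 57.1 CPM in the ketogenic libraries, against 42.5 and 37.3 CPM in the control libraries. Both ketogenic libraries stood above both control libraries. The fold was 1.46, and on the log2 scale the difference was 0.55 ± 0.10 (SE over 2 libraries of each diet). Both ketogenic libraries stood above both control libraries for 22.4% of the 12784 genes tested over all cells, and since Snhg6 was chosen for this contrast nothing is read from its place among them. Its log2 fold change exceeded that of 93.3% of the tested genes, and for the same reason nothing is read from this rank.

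In enterocytes, the absorptive cells, Snhg6 had 58.3 and 55.2 CPM in the ketogenic libraries, against 40.0 and 35.1 CPM in the control libraries (log2 fold change 0.60 ± 0.12). In transit amplifying cells, the dividing progeny of stem cells, it had 61.0 and 49.7 CPM in the ketogenic libraries, against 36.8 and 33.2 CPM in the control libraries (log2 fold change 0.66 ± 0.14, 1.58-fold). These sets of libraries did not overlap, and the transit amplifying value was the highest of the 7 types, though differences between types were not tested for Snhg6. In stem cells of the crypt base Snhg6 had 80.5 and 79.7 CPM in the ketogenic libraries, against 65.9 and 48.9 CPM in the control libraries (log2 fold change 0.51 ± 0.15). The ketogenic libraries were almost equal there, and the control libraries differed from each other by more. Goblet cells, which secrete mucus, had 51.7 and 49.4 CPM in the ketogenic libraries, against 39.6 and 30.4 CPM in the control libraries (log2 fold change 0.53 ± 0.14). Tuft cells, which are chemosensory, had 76.4 and 70.4 CPM in the ketogenic libraries, against 61.7 and 51.4 CPM in the control libraries (log2 fold change 0.39 ± 0.22). Goblet and tuft cells also showed no overlap between diets. Control library 2 was the lower of the control libraries in all 5 types.

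Snhg6 levels overlapped between diets in the other two types. Enteroendocrine cells, the hormone-secreting cells, had 95.2 and 86.2 CPM in the ketogenic libraries, against 76.9 and 101.9 CPM in the control libraries (log2 fold change -0.0032 ± 0.21). Paneth cells, which secrete antimicrobial peptides, had 34.6 and 46.5 CPM in the ketogenic libraries, against 39.1 and 20.8 CPM in the control libraries (log2 fold change 0.43 ± 0.43). The Paneth sums held 7 to 14 Snhg6 UMIs each from 35 to 56 cells, so counting error alone makes this value imprecise. The share of tested genes with both ketogenic libraries above both control libraries was 22.9% in enterocytes, 20.1% in transit amplifying, 17.4% in stem, 19.4% in goblet, 17.5% in tuft, 16.8% in enteroendocrine and 19.1% in Paneth cells.

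**Figure D1:**
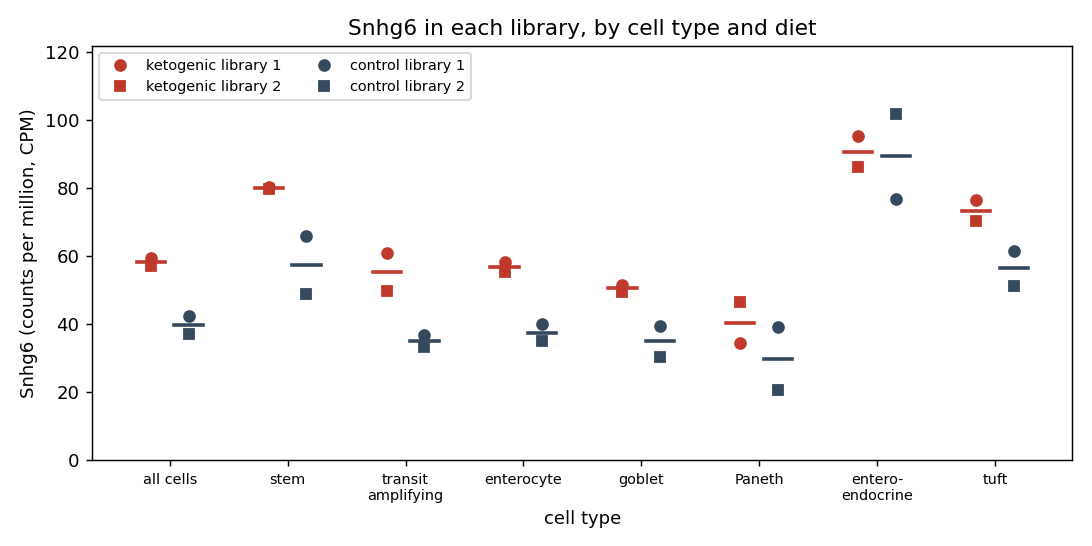
Snhg6 level (y axis, CPM) in each library for all cells and the 7 cell types (x axis), with ketogenic libraries left of control libraries and a bar at each mean of 2 libraries. Ketogenic points lie above control points in all cells and in 5 types, with 59.6 and 57.1 against 42.5 and 37.3 CPM over all cells, and mix with them in Paneth and enteroendocrine cells.

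The size of the Snhg6 difference moved with the control library that was used. Without control library 2 its log2 fold change over all cells was 0.44, and without control library 1 it was 0.64. In stem cells the values were 0.29 without control library 2 and 0.71 without control library 1, and in goblet cells 0.35 and 0.73. Paneth cells ranged most, with 0.07 without control library 2 and 0.96 without control library 1. Enteroendocrine cells had 0.26 without control library 2 and -0.16 without control library 1. In transit amplifying cells the ketogenic libraries set the range, with 0.51 without ketogenic library 1 and 0.81 without ketogenic library 2. When the 7 types were given equal weight in each library, the log2 fold change over all cells was 0.39.

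**Figure D2:**
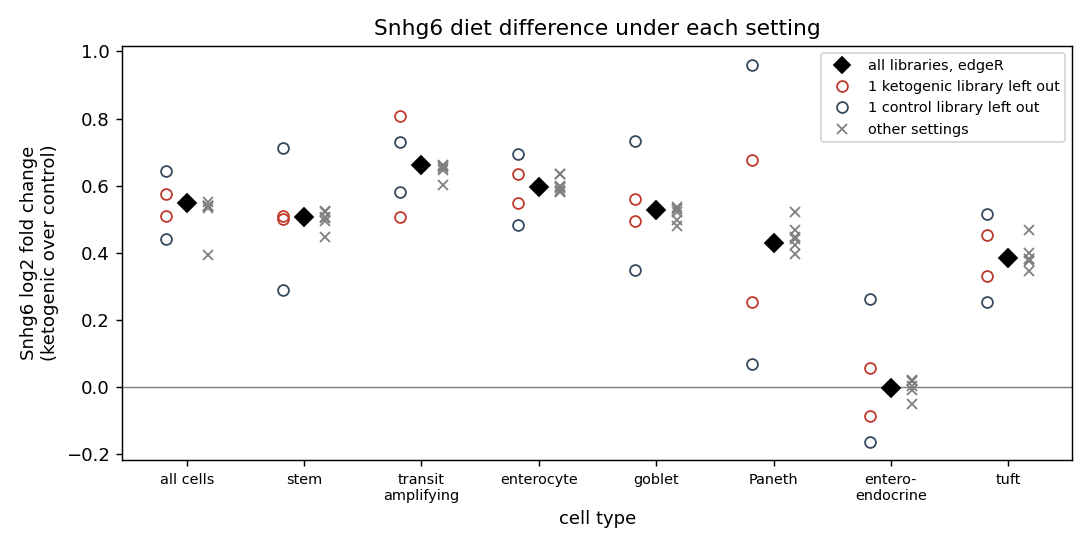
Log2 fold change of Snhg6, ketogenic over control (y axis), for all cells and each cell type (x axis), with all libraries (diamonds), with 1 library left out (circles) and under the other settings (crosses). The values over all cells lie between 0.39 and 0.64, and those of enteroendocrine cells lie on both sides of 0.

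Several library properties moved with diet, and their part in the Snhg6 difference was not tested except where a value follows. Among cells with under 10% mitochondrial UMIs the Snhg6 log2 fold change was 0.54 over all cells and 0.63 in enterocytes. With all libraries thinned to the lowest UMI total it was 0.53 over all cells. The summed level of 7 immune cell markers over all cells was 1.61 to 2.54 CPM in the ketogenic libraries and 2.95 to 3.37 CPM in the control libraries, and none of the markers was at 0. In enterocytes the immune markers summed to 0.268 to 3.65 CPM in the ketogenic libraries and 4.24 to 5.24 CPM in the control libraries. In stem cells all 7 immune markers were at 0 in both ketogenic libraries and 6 or 7 of them in the control libraries. The summed level of 5 stromal markers over all cells was 0.297 to 0.439 CPM in the ketogenic libraries and 0.205 to 0.480 CPM in the control libraries, with 2 to 4 of them at 0. Markers of other epithelial types also moved with diet, in the same direction as Snhg6. The 6 Paneth markers summed to 4724 and 2199 CPM over all cells of the ketogenic libraries, against 1125 and 722 CPM in the control libraries. In enterocytes they summed to 358 and 195 CPM in the ketogenic libraries, against 90.2 and 164 CPM in the control libraries, and in transit amplifying cells to 353 and 180 CPM in the ketogenic libraries, against 118 and 98.2 CPM in the control libraries. The 5 enterocyte markers summed to 614 and 600 CPM in stem cells of the ketogenic libraries, against 411 and 482 CPM in the control libraries, and to 1181 and 1029 CPM in transit amplifying cells of the ketogenic libraries, against 701 and 774 CPM in the control libraries. In neither list did the diets overlap in the cells named.

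The last 127 bases of Snhg6 overlap Mcmdc2, a protein-coding gene on the opposite strand, and the sources used here do not give whether reads were counted by strand. Mcmdc2 had 6 and 4 UMIs over all cells in the ketogenic libraries, against 1 and 1 in the control libraries, so its counted level was near 0 beside that of Snhg6. Trnau1ap, on the opposite strand beside Snhg12, does not overlap it.

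Snhg12, the host of Snord99 and of 3 snoRNAs of the H/ACA class, which guides pseudouridine formation, was tested between diets in all cells and in the 6 types in which it passed the filter on low counts, and 0 of these tests called it. Over all cells it had 31.9 and 32.5 CPM in the ketogenic libraries, against 21.4 and 32.3 CPM in the control libraries. The log2 fold change was 0.26 ± 0.19 (SE over 2 libraries of each diet), and edgeR's quasi-likelihood test gave an adjusted p of 0.649. Control library 1 stood alone below the other three libraries, and the unadjusted p of the edgeR test was 0.203. By the same test 0.172% of the 12784 genes tested over all cells were called. The share called was 0.18% in enterocytes, 0.0582% in enteroendocrine, 0.521% in goblet, 0.44% in Paneth, 0.336% in stem, 0.715% in transit amplifying and 0.0144% in tuft cells.

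Control library 1 had the lowest Snhg12 level in 6 of the 7 cell types. In enterocytes Snhg12 had 31.8 and 31.6 CPM in the ketogenic libraries, against 19.1 and 31.4 CPM in the control libraries (log2 fold change 0.32 ± 0.22, edgeR adjusted p = 0.646). Goblet cells had 28.7 and 24.9 CPM in the ketogenic libraries, against 19.3 and 24.3 CPM in the control libraries (log2 fold change 0.30 ± 0.16, edgeR adjusted p = 0.634). In both types the second control library lay within 1 CPM of the lower ketogenic library. Transit amplifying cells had 28.9 and 30.4 CPM in the ketogenic libraries, against 22.0 and 27.1 CPM in the control libraries (log2 fold change 0.26 ± 0.15, edgeR adjusted p = 0.648). Enteroendocrine cells had 34.0 and 36.2 CPM in the ketogenic libraries, against 25.6 and 33.0 CPM in the control libraries (log2 fold change 0.20 ± 0.31, edgeR adjusted p = 1.00). The diets did not overlap in these 4 types. Of all genes tested, the share with no overlap in either direction was 43.3% in enterocytes, 38.4% in goblet, 39.7% in transit amplifying and 32.9% in enteroendocrine cells, so such a gap is common here.

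Stem cells had 55.5 and 51.1 CPM of Snhg12 in the ketogenic libraries, against 39.3 and 57.5 CPM in the control libraries (log2 fold change 0.09 ± 0.17, edgeR adjusted p = 0.978). Tuft cells had 36.4 and 28.1 CPM in the ketogenic libraries, against 29.9 and 17.6 CPM in the control libraries (log2 fold change 0.47 ± 0.34, edgeR adjusted p = 0.933). The diets overlapped in both. In Paneth cells Snhg12 did not pass the filter, with 31.9 and 29.9 CPM in the ketogenic libraries and 19.5 and 29.7 CPM in the control libraries, from 6 to 12 UMIs per sum. The diet difference of Snhg12 was also compared between each type and enterocytes, and the edgeR adjusted p of that difference was 0.889 or more in all 6 types, so no difference between types was called.

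**Figure D3:**
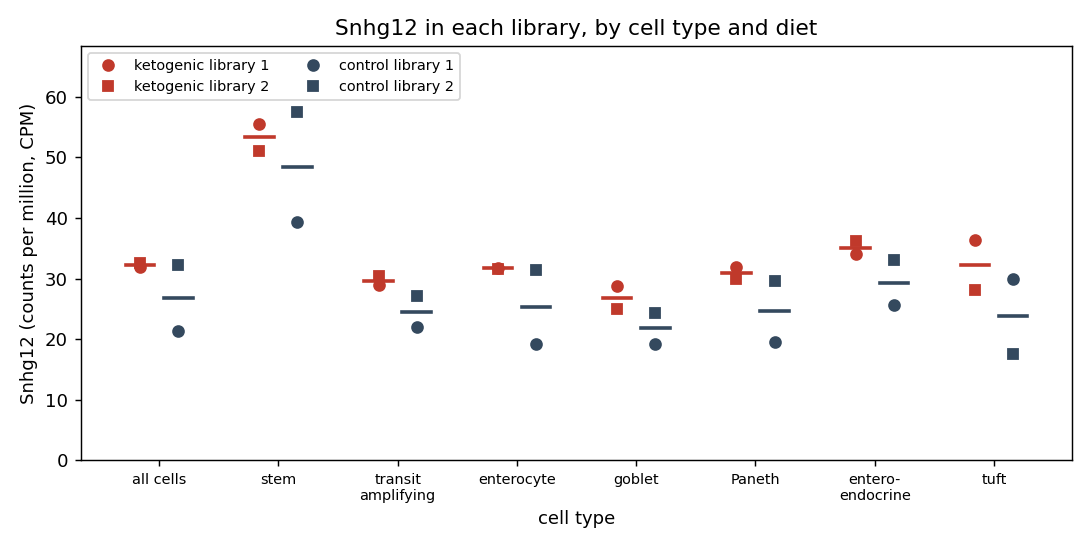
Snhg12 level (y axis, CPM) in each library for all cells and the 7 cell types (x axis), with ketogenic libraries left of control libraries and a bar at each mean of 2 libraries. Control library 1 is the lowest point in 6 types, such as 19.1 CPM in enterocytes, where the other three libraries lie between 31.4 and 31.8 CPM.

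The outcome for Snhg12 depended on the control libraries. Without control library 2, edgeR called it higher on the ketogenic diet over all cells (log2 fold change 0.58, adjusted p = 0.0457) and in enterocytes (0.71, adjusted p = 0.0108). With control library 1 left out instead, edgeR gave -0.0057 over all cells (adjusted p = 0.995) and 0.012 in enterocytes (adjusted p = 0.992). With 2 libraries against 2, an exact two-sided permutation test cannot go below p = 0.333.

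The wider biology of host genes was described by 8 gene lists, and 0 members of any list were called between diets by edgeR in all cells or in any type. At an unadjusted p under 0.05 by the same test there were 12 of 172 list members tested over all cells (6.98%, against 11% of all genes), 11 of 170 in enterocytes (6.47% against 9.91%), 16 of 167 in transit amplifying cells (9.58% against 9.21%), 5 of 167 in stem cells (2.99% against 6.42%) and 15 of 168 in goblet cells (8.93% against 8.96%). There were 6 of 157 in tuft cells (3.82% against 5.34%), 3 of 156 in enteroendocrine cells (1.92% against 4.61%) and 2 of 127 in Paneth cells (1.57% against 7.68%), so the members were at or below the share of all genes except in transit amplifying cells, where the shares were close. DESeq2 called 1 member over all cells. Of 14 other noncoding hosts, 5 had a row and 3 passed the filter over all cells. Snhg20 had 57.2 and 55.9 CPM in the ketogenic libraries, against 47.6 and 49.0 CPM in the control libraries (log2 fold change 0.23 ± 0.09, edgeR adjusted p = 0.419). Snhg9 had 27.3 and 22.3 CPM in the ketogenic libraries, against 21.02 and 21.7 CPM in the control libraries (edgeR adjusted p = 0.571). Snhg18 had 46.1 and 61.9 CPM in the ketogenic libraries, against 48.4 and 55.9 CPM in the control libraries (edgeR adjusted p = 0.935). Both ketogenic libraries stood above both control libraries for Snhg20 and Snhg9, as for 22.4% of all genes tested, and the diets overlapped for Snhg18.

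A list of genes with TOP starts, mostly translation factors such as the elongation factor Eef1a1, had positive log2 fold changes for 16 of 16 tested members over all cells. The median was 0.14 against 0.01 for all tested genes, and 0 were called. This list, named TOP translation factors below, also holds other genes such as Vim and Npm1. Cytosolic ribosomal proteins had positive values for 61 of 83, with a median of 0.07. Protein-coding snoRNA hosts had positive values for 13 of 16 and a median of 0.11. The proteins of snoRNA particles, such as the methyltransferase Fbl, had positive values for 6 of 15, with a median of -0.03. Nonsense-mediated decay factors, among them Upf1, had positive values for 5 of 16, with a median of -0.05. Ribosome biogenesis genes had positive values for 9 of 20 and integrated stress response targets for 7 of 15, and no member of these lists was called. These counts are over all cells and differed between types. In enterocytes 17 of 20 ribosome biogenesis genes (median 0.11 against 0.02 for all genes) and 15 of 16 protein-coding hosts had positive values. In goblet cells the counts were 7 of 20 and 12 of 16. In Paneth cells 13 of 83 ribosomal proteins had positive values (median -0.11), and with the RLE scaling the TOP factors there had 9 of 15 positive values in place of 7 of 15.

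Levels of both hosts differed between cell types within the same libraries. All 28 sums of library and cell type were fitted together with the library as a block, and each type was set against enterocytes. The cell types are the authors', and the sources used here do not give how they were assigned. If they were drawn from the expression of all genes, the p-values of this comparison are too small. In this common scaling Snhg6 averaged 70.2 ± 9.4 CPM in enteroendocrine cells, 67.4 ± 14.5 in stem cells, 54.0 ± 8.7 in tuft cells, 48.0 ± 11.4 in enterocytes, 45.6 ± 10.5 in goblet cells, 45.5 ± 13.4 in Paneth cells and 44.5 ± 12.4 in transit amplifying cells (SD, n = 4 libraries of both diets). Neighbours in this order overlapped in all 6 pairs, so the order itself is loose.

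Stem cells had more Snhg6 than enterocytes, with 79.1 and 78.1 CPM against 59.1 and 56.1 CPM in the ketogenic libraries and 64.4 and 48.2 CPM against 41.0 and 35.7 CPM in the control libraries. Stem cells were higher in 4 of 4 libraries, with a log2 difference of 0.49 ± 0.09 (edgeR adjusted p = 9.71e-06). Enteroendocrine cells had 74.0 and 67.0 CPM of Snhg6 in the ketogenic libraries and 58.8 and 80.8 CPM in the control libraries, above the enterocytes of each library (log2 difference 0.55 ± 0.11, edgeR adjusted p = 5.11e-05). The background is high in such contrasts: 21.7% of 11069 tested genes were called higher in stem cells than in enterocytes, and 30.9% were called higher in enteroendocrine cells. Called lower were 22.5% in stem cells and 34.5% in enteroendocrine cells. Tuft cells were above enterocytes in 4 of 4 libraries without a call (0.17 ± 0.12, edgeR adjusted p = 0.242). Goblet, Paneth and transit amplifying cells differed from enterocytes by -0.07 ± 0.09, -0.09 ± 0.22 and -0.11 ± 0.08, and none was called. Of all genes, 55.6% were called in either direction in tuft, 57.1% in goblet, 33% in Paneth and 38.4% in transit amplifying cells. The median gene was at -0.04 in enteroendocrine cells relative to enterocytes with TMM scaling and at 0.06 with RLE scaling, a shift that also moved Snhg6, to 0.66.

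Snhg12 was highest in stem cells, at 49.9 ± 8.1 CPM, against 29.0 ± 6.2 CPM in enterocytes (SD, n = 4 libraries). By library, stem cells had 54.5 and 50.03 CPM against 32.2 and 32.1 CPM in enterocytes of the ketogenic libraries, and 38.5 and 56.7 CPM against 19.6 and 31.9 CPM in enterocytes of the control libraries. Stem cells were higher in 4 of 4 libraries, by 1.73-fold, with a log2 difference of 0.79 ± 0.09 (edgeR adjusted p = 4.71e-10). Paneth cells followed at 36.0 ± 7.4 CPM, and transit amplifying cells had 26.7 ± 3.6, goblet cells 25.9 ± 4.1, enteroendocrine cells 25.1 ± 3.8 and tuft cells 23.3 ± 6.3 CPM. None of these 5 types was called against enterocytes, with edgeR adjusted p between 0.0760 in tuft cells and 0.351 in Paneth cells. Snhg12 was thus called higher in stem cells alone of the 6 types, and Snhg6 in stem and enteroendocrine cells.

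**Figure D4:**
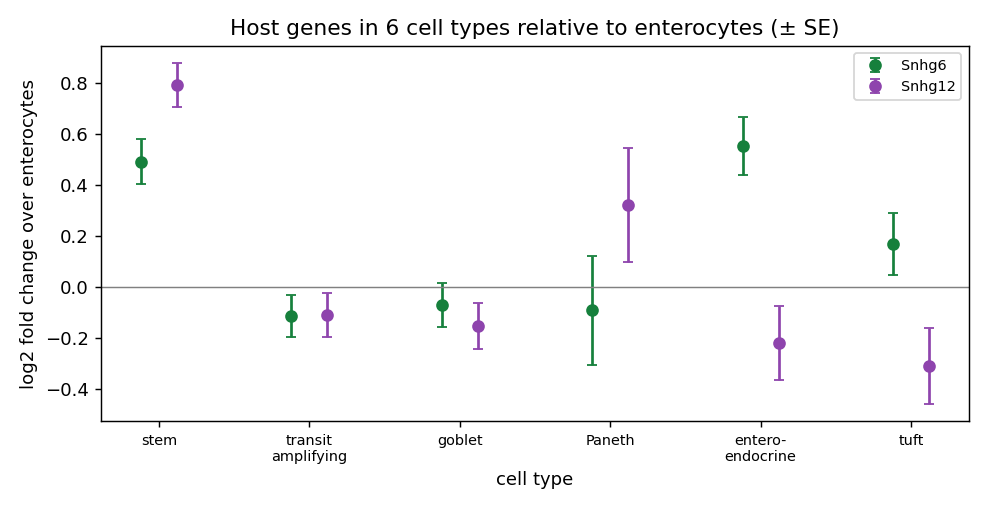
Log2 fold change of Snhg6 and Snhg12 in 6 cell types over enterocytes (y axis, points with SE bars) from 1 fit of 28 sums. Both genes lie above 0 in stem cells, at 0.49 for Snhg6 and 0.79 for Snhg12, and in enteroendocrine cells Snhg6 lies at 0.55 and Snhg12 at -0.22.

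Other genes of the snoRNA and ribosome lists were also higher in stem cells than in enterocytes. Of 83 ribosomal proteins 72 were called higher and 3 lower, of 16 TOP translation factors 15 were called higher, and of 16 protein-coding snoRNA hosts 14 were. Their medians were 0.24, 0.31 and 0.27, against 0.03 for all genes. Of all genes, 21.7% were called higher and 22.5% lower in stem cells. Eef2, the elongation factor whose introns carry a snoRNA, was higher by 0.39 ± 0.06 and Nop56, a core protein of C/D box particles and itself a host, by 0.45 ± 0.09. Of the other noncoding hosts, Snhg18 was higher by 0.43 ± 0.15 and Snhg20 by 0.20 ± 0.08. Of 15 snoRNA particle proteins 6 were called higher, and of 20 ribosome biogenesis genes 10 were called higher and 1 lower. Among the latter Myc, a transcription factor that drives ribosome production, was at 0.83 ± 0.08. In transit amplifying cells, where neither host was called, 15 of 15 snoRNA particle proteins and 14 of 20 ribosome biogenesis genes were called higher. Of 16 protein-coding snoRNA hosts 6 were called higher there, of 83 ribosomal proteins 3 and of 16 TOP translation factors 2, and none was called lower. Of all genes, 38.4% were called in either direction in transit amplifying cells.

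In enteroendocrine cells the other noncoding hosts and most members of 3 lists, ribosomal proteins, snoRNA particle proteins and ribosome biogenesis genes, were called lower than in enterocytes, while Snhg6 was called higher. Snhg9, Snhg18 and Snhg20 were all called lower than in enterocytes, by log2 differences of -1.66 ± 0.25, -1.61 ± 0.29 and -1.08 ± 0.13. Of 83 ribosomal proteins 0 were called higher and 71 lower, with a median of -0.37 against -0.04 for all genes, and with RLE scaling 1 was higher and 57 lower. Of 15 snoRNA particle proteins 12 were called lower, among them Dkc1, the pseudouridine synthase of H/ACA particles, at -2.02 ± 0.17. Of 20 ribosome biogenesis genes 18 were called lower. Against this and the counts that follow, 30.9% of all genes were called higher and 34.5% lower in enteroendocrine cells. TOP translation factors were divided, with 5 called higher and 6 lower, and the 5 included Vim, an intermediate filament gene, at 8.74 ± 0.18. Of 16 nonsense-mediated decay factors 6 were called higher and 4 lower. Of 12 integrated stress response targets 4 were called higher and 4 lower, and of 16 protein-coding hosts 3 higher and 9 lower. In tuft cells 3 of 3 other noncoding hosts, 76 of 83 ribosomal proteins and 12 of 15 snoRNA particle proteins were also called lower. Of 20 ribosome biogenesis genes 15 were called lower and 1 higher there. In goblet cells 10 of 15 snoRNA particle proteins and 13 of 20 ribosome biogenesis genes were called lower. Of 83 ribosomal proteins 20 were called higher and 1 lower in goblet cells. Of all genes, 55.6% in tuft and 57.1% in goblet cells were called in either direction.

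Enterocytes themselves were not uniform in either host. They were ranked within each library by the share of UMIs in 5 enterocyte markers (Alpi, Apoa1, Fabp2, Apoa4 and Cbr1) and divided at that library's median into upper and lower enterocytes, a comparison added after the data were seen. The upper and lower cells are ranges of a continuous share and not types. The mean marker share per cell was 0.063% and 0.049% of UMIs in lower and 0.57% and 0.35% in upper enterocytes of the ketogenic libraries. In the control libraries it was 0.044% and 0.037% in lower and 0.27% and 0.31% in upper enterocytes. Stem cells had 614 and 600 CPM of these markers in the ketogenic libraries and 411 and 482 CPM in the control libraries. These are near the lower enterocytes' share, and whether the division repeats the contrast with stem cells was not tested. Snhg6 averaged 38.7 ± 9.20 CPM in upper enterocytes and 56.6 ± 13.6 CPM in lower enterocytes (SD, n = 4 libraries). Upper enterocytes had 45.3 and 47.9 CPM against 71.7 and 63.8 CPM in lower enterocytes of the ketogenic libraries, and 32.4 and 29.4 CPM against 49.2 and 41.7 CPM in lower enterocytes of the control libraries. Snhg6 was lower in the upper enterocytes of 4 of 4 libraries (log2 difference -0.55 ± 0.07, edgeR adjusted p = 6.13e-05).

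Snhg12 differed by more along the same ranking. It averaged 18.6 ± 4.99 CPM in upper enterocytes and 39.5 ± 7.57 CPM in lower enterocytes (SD, n = 4 libraries). Upper enterocytes had 19.2 and 22.7 CPM against 44.5 and 42.0 CPM in lower enterocytes of the ketogenic libraries, and 11.4 and 21.1 CPM against 28.2 and 43.2 CPM in lower enterocytes of the control libraries. It was lower in the upper enterocytes of 4 of 4 libraries (log2 difference -1.09 ± 0.09, edgeR adjusted p = 2.05e-06). By this test 28.3% of 10844 genes were lower in upper enterocytes, and Snhg12 lay below all but 5.29% of the tested genes.

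With the enterocytes of each library divided into 4 equal groups by the same share, the level of Snhg12 stepped down in order in 4 of 4 libraries and that of Snhg6 in 3 of 4. In groups 1 to 4, lowest share to highest, Snhg12 had 47.5, 42.4, 26.6 and 9.50 CPM (here of the plain UMI totals, without TMM) in ketogenic library 1 and 45.2, 43.2, 30.8 and 16.2 in ketogenic library 2. It had 35.9, 24.1, 14.0 and 8.61 in control library 1 and 47.7, 39.9, 29.6 and 11.8 in control library 2. Snhg12 was thus lowest in group 4 of every library. Group 1 was 5.01 and 2.79 times group 4 in the ketogenic libraries and 4.17 and 4.06 times in the control libraries. Snhg6 had 70.8, 73.2, 49.7 and 34.5 CPM in groups 1 to 4 of ketogenic library 1 and 70.1, 64.4, 55.2 and 42.8 in ketogenic library 2. It had 56.5, 47.3, 36.2 and 27.3 in control library 1 and 43.8, 40.5, 33.8 and 23.5 in control library 2. Ketogenic library 1 was the exception, with its highest Snhg6 level in group 2. For Snhg6 the ratios of group 1 to group 4 were 2.05 and 1.64 in the ketogenic libraries and 2.07 and 1.86 in the control libraries. Depth also differed between these groups, with a median of 8314 and 7907 UMIs per cell in group 1 and 10229 and 11562 in group 4 of the ketogenic libraries, and 6885 and 6198 in group 1 and 10379 and 8167 in group 4 of the control libraries. The part of depth per cell was not tested. The mean marker share in group 1 was 0.036% and 0.028% of UMIs in the ketogenic libraries and 0.023% and 0.019% in the control libraries. Few marker UMIs thus rank the cells at that end, so the step from group 1 to group 2 is loosely defined. With the sums of upper and lower enterocytes thinned to the lowest total, both differences kept their direction and their call. The median mitochondrial share was 14.1% and 9.37% of UMIs in upper enterocytes against 8.04% and 7.76% in lower enterocytes of the ketogenic libraries, and 10.4% and 9.27% against 10.4% and 7.95% in the control libraries. Among cells under 10% mitochondrial UMIs the log2 differences were -0.59 for Snhg6 and -1.23 for Snhg12.

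**Figure D5:**
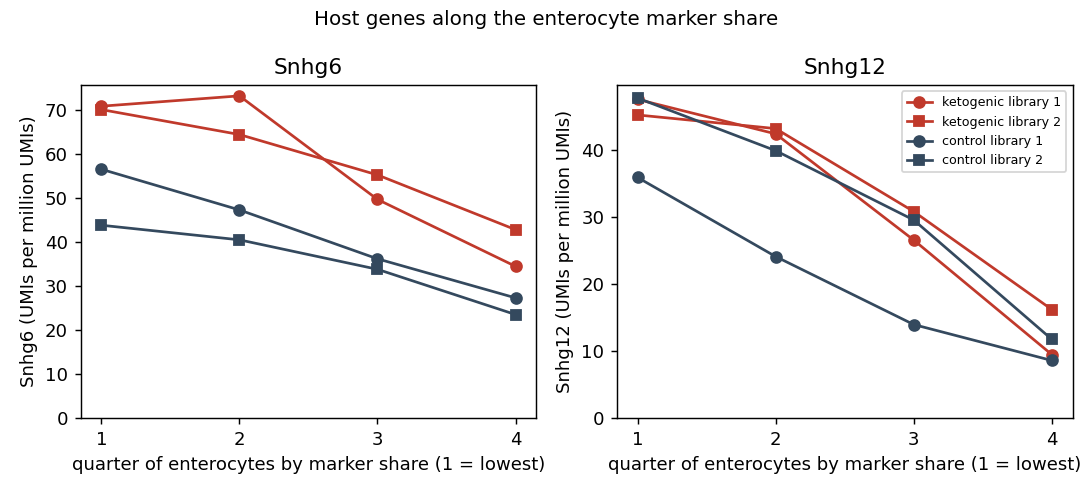
Snhg6 (left) and Snhg12 (right) in CPM of plain UMI totals (y axis) in 4 equal groups of enterocytes ordered by the share of UMIs in enterocyte markers (x axis, 1 = lowest), with 1 line per library. Every line falls at each step except that of Snhg6 in ketogenic library 1, which is highest in group 2, and Snhg12 ends between 8.61 and 16.2 CPM.

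Most genes of the ribosome and snoRNA lists were also lower in upper enterocytes. Of 83 ribosomal proteins 78 were lower and 2 higher in upper enterocytes (median log2 difference -0.33, against -0.014 for all genes), of 15 TOP translation factors 15 were lower, and of 16 protein-coding snoRNA hosts 16 were lower. Npm1, a nucleolar protein with a TOP start, had a log2 difference of -0.94 ± 0.07, and Rpl3, a protein of the large ribosomal subunit, had -0.60 ± 0.03. Of the noncoding hosts Snhg18, Snhg20 and Snhg9, 2 of 3 were lower too, Snhg18 at -0.70 ± 0.11 and Snhg20 at -0.32 ± 0.07, and Snhg9 was not called. Of 20 ribosome biogenesis genes 17 were lower and 1 higher, with Myc at -1.56 ± 0.15, and 12 of 15 snoRNA particle proteins were lower. Nonsense-mediated decay factors, with 3 lower and 1 higher of 16, were mostly not called. Integrated stress response targets, with 5 lower and 5 higher of 12, were divided. Of the 10844 genes tested, 28.3% were called lower in upper enterocytes.

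The levels of Snhg6 by diet on both sides of the division are again a description, since these are the cells for which it was chosen. Each library was divided at its own median, so the diets were not compared at equal marker shares. On both sides the mean share was higher in the ketogenic libraries, and the part of this was not tested. Upper enterocytes had 44.0 and 46.6 CPM in the ketogenic libraries, against 31.4 and 28.6 CPM in the control libraries (log2 fold change 0.59 ± 0.14). Lower enterocytes had 74.5 and 65.9 CPM in the ketogenic libraries, against 50.3 and 42.6 CPM in the control libraries (log2 fold change 0.60 ± 0.12). Both ketogenic libraries stood above both control libraries for Snhg6 in each, as for 19.8% of genes in upper and 21.9% in lower enterocytes, and nothing is read from this. Snhg12 was called in neither, with 18.7 and 22.1 CPM in the ketogenic libraries against 11.1 and 20.6 CPM in the control libraries for upper enterocytes (edgeR adjusted p = 0.832), and 46.2 and 43.4 CPM in the ketogenic libraries against 28.8 and 44.1 CPM in the control libraries for lower enterocytes (edgeR adjusted p = 0.601).

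The genes most like each host over the 28 sums included a translation elongation factor, and for Snhg12 also ribosomal proteins. Likeness was Pearson's r of log2 CPM, computed for genes whose log2 CPM averaged 5 or more, and it is a description, since sums share libraries, depth and diet. For Snhg6 the closest genes were Eef2 (r = 0.84), Gsk3b (0.76), Gltscr2 (0.73), Eci2 (0.70) and Ubald2 (0.69). Eef2 is the translation elongation factor named above, Gsk3b is a protein kinase, Gltscr2 is a nucleolar protein, and Eci2 is an isomerase of fatty acid oxidation. For Snhg12 they were Eef1a1 (r = 0.83), Soat1 (0.81), Rpl10a (0.78), Rpl18 (0.78) and Rpl9 (0.77). Soat1 esterifies cholesterol, and the other four are an elongation factor and ribosomal proteins. The hosts themselves were less alike, with r = 0.25 between Snhg6 and Snhg12, where Snhg6 ranked 607 among 3329 genes.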

How the data were processed

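The authors deposited raw UMI counts for every gene in every cell, and a cell table names the library and cell type. Cell Ranger 2.1.0 and mm10 are named per the submitters' processing notes. The sources used here do not give the gene annotation, the filters on cells or the treatment of doublets; no doublet caller was run, and all deposited cells were kept. No column of the files was left unmapped.

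Counts were summed per library and cell type, because cells are not replicates, and tested with edgeR 4.0.16 in R 4.3.3 (quasi-likelihood test, TMM, filterByExpr) with Benjamini-Hochberg adjustment over all genes tested at 0.05. CPM use TMM-adjusted totals. The SE is the log2 fold change divided by the root of the F statistic. Diet was fitted per cell type, and cell types and enterocyte ranges were fitted with library as a block. Likeness used log2 CPM with a prior count of 2. The tests were tested on simulated counts.

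The members, lists and tests were chosen with earlier results of these data known. Named genes are the members, the measured other noncoding hosts, the called list members with the largest differences and the 5 genes most like each host. A planned division of enterocytes by 9 villus tip genes was replaced by enterocyte markers, because 41.1% to 61.8% of enterocytes per library had 0 tip UMIs. The ranking by enterocyte markers also rests on few UMIs per cell at its low end. 1 planned enterocyte marker was left out and is not reported here. No library repeats another: comparing replicates gave a chi-square of 21.3 times its degrees of freedom in the ketogenic pair and 28.3 times in the control pair. Each library was also left out in turn, which assumes that the remaining library of that diet varies like those of the other diet. Further alternatives were RLE scaling, DESeq2 1.42.0, a fit without the low-count filter, sums thinned to the lowest total, cells under 10% mitochondrial UMIs, equal weights for cell types and the replicate number as a block. Positions and snoRNA sequences come from GENCODE M21 and the GRCm38 genome.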

Additional observations from a re-analysis of the deposited data

How the results depend on the processing

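For Snhg6 between diets, no setting changed the sign in all cells or in the 5 types without overlap. Where both ketogenic libraries stand above both control libraries, leaving out 1 library keeps that order, so nothing is read from the kept sign. An equal mix of types moved the log2 fold change over all cells to 0.39. Leaving out 1 library gave 0.44 to 0.64 in all cells, 0.48 to 0.69 in enterocytes, -0.16 to 0.26 in enteroendocrine, 0.35 to 0.73 in goblet, 0.068 to 0.96 in Paneth, 0.29 to 0.71 in stem, 0.51 to 0.81 in transit amplifying and 0.25 to 0.52 in tuft cells. For Snhg12 the ranges were -0.0057 to 0.58 in all cells, 0.012 to 0.71 in enterocytes, 0.063 to 0.44 in enteroendocrine, 0.14 to 0.47 in goblet, -0.12 to 0.43 in stem, 0.13 to 0.43 in transit amplifying and 0.11 to 0.87 in tuft cells, with the low end without control library 1 except in tuft cells, and thinned sums gave -0.068 in tuft cells.

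Against enterocytes, both hosts stayed called in stem cells and Snhg6 in enteroendocrine cells under every alternative. Thinning to the Paneth total gave Snhg12 0.020 in enteroendocrine, 0.0067 in goblet and 0.23 in transit amplifying cells, and Snhg6 0.36 in Paneth and 0.37 in transit amplifying cells, all of opposite sign to the value with all UMIs and none called. Snhg6 in Paneth cells was -0.27 to 0.0042 with 1 library left out. Snhg12 was called lower in transit amplifying cells among cells under 10% mitochondrial UMIs (-0.27, adjusted p = 0.0275), and without control library 1 in goblet, transit amplifying and tuft cells; with 1 library left out the ranges were -0.21 to -0.087, -0.21 to -0.083 and -0.48 to -0.092. The upper and lower enterocytes kept both calls under every alternative. The causes were not tested.

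The count of genes called by edgeR between diets was 22 in all cells, 21 in enterocytes, 4 in enteroendocrine, 52 in goblet, 13 in Paneth, 32 in stem, 72 in transit amplifying and 1 in tuft cells. DESeq2 called 211 in all cells, 176 in enterocytes, 2 in enteroendocrine, 24 in goblet, 14 in stem and 2 in tuft cells. With no filter the counts were 407 in all cells, 313 in enterocytes, 27 in enteroendocrine, 44 in Paneth, 74 in stem, 279 in transit amplifying and 0 in tuft cells. Cells under 10% mitochondrial UMIs gave 51 in enterocytes, 20 in Paneth and 2 in tuft cells, thinned sums gave 22 in Paneth, 55 in stem and 4 in tuft cells, and RLE gave 4 in tuft cells. Leaving out 1 library gave 29 to 364 in all cells, 12 to 760 in enterocytes, 11 to 94 in enteroendocrine, 99 to 189 in goblet, 2 to 31 in Paneth, 48 to 100 in stem, 37 to 290 in transit amplifying and 6 to 37 in tuft cells.

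Members of the 8 lists called between diets, 0 by edgeR, were 1 with DESeq2 in all cells, 2 with no filter in all cells, and 1 with no filter in enterocytes, enteroendocrine and transit amplifying cells. Leaving out 1 library gave 0 to 1 in all cells, 0 to 3 in enterocytes, 0 to 13 in enteroendocrine, 1 to 4 in goblet, 0 to 2 in transit amplifying and 0 to 6 in tuft cells.

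Libraries of the 2 diets share replicate numbers, and no pairing by number was seen: the deviations of same-numbered libraries correlated at -0.04 to 0.08. Such a correlation cannot show whether same-numbered libraries were handled together. With the replicate number as a block, 69 genes were called in all cells, 137 in enterocytes, 19 in enteroendocrine, 104 in goblet, 57 in Paneth, 99 in stem, 200 in transit amplifying and 4 in tuft cells, and of the lists 1 in enterocytes, 1 in enteroendocrine and 2 in transit amplifying cells. Snhg12 was not called with the block in any type, and Snhg6 over all cells had 0.55.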
